A study of Mus musculus with 8 samples.

Results

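Acyl-CoA thioesterases are enzymes that split an acyl-CoA into a free fatty acid and coenzyme A. This report describes 8 genes of this family, Acot1, Acot2, Acot3, Acot4, Acot7, Acot9, Acot12 and Acot13, in livers of fasted mice whose PLIN5, a protein of the lipid droplet surface, lacks a phosphorylation site, the serine replaced by alanine in the S155A change. The genes were chosen by symbol, as the rows of the gene table whose name equals one of these 8, out of 45706 genes in the table. All 8 members passed the filter on low counts that left 14629 genes for testing.

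The livers came from female C57BL/6J mice, 4 months old and fasted overnight, of which 4 were wild type (WT) and 4 carried that S155A change, placed by gene editing in their own Plin5 gene (the mice that the study names SA/SA). Each liver gave 1 RNA library. WT and S155A mice shared strain, sex, age, diet and fast, and no fed liver was analysed here, so the values give levels after a fast and not the response to it. The change is in every tissue of the mouse and not in hepatocytes alone.

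Thioesterases set how much acyl-CoA stays in a cell compartment for oxidation, esterification or signalling. The type I enzymes are closely related proteins placed in different compartments: Acot1 in the cytosol, Acot2 in mitochondria and Acot3 and Acot4 in peroxisomes. In mouse liver their genes are known targets of PPARa, the nuclear receptor that drives the response to fasting. The type II enzymes share a different fold, the hotdog fold. Of these, Acot7 is a cytosolic enzyme best known from brain, Acot9 is mitochondrial, Acot12 splits acetyl-CoA in the cytosol and Acot13 (Them2) acts on long-chain acyl-CoA and binds the lipid transfer protein encoded by Pctp.

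The 4 type I members lay in 1 cluster on chromosome 12. In GRCm38 with the GENCODE M21 annotation, the stretch from the start of Acot2 to the end of Acot6 was chr12:83987861-84111349, 123.5 kb long, with all 6 type I genes on the plus strand. Acot2 came first (chr12:83987861-83993873), followed by Acot1 (chr12:84009490-84018371), Acot4 (chr12:84038379-84048601) and Acot3 (chr12:84052144-84060402), and then by Acot5 and Acot6. Acot3 and Acot4 overlapped an antisense gene, 4732463B04Rik, and a same-strand gene model, Gm49366, that was not a row of the table. The type II members lay apart from each other, with Acot7 at chr4:152178134-152271855, Acot9 at chrX:155262443-155297654, Acot12 at chr13:91741512-91786148 and Acot13 at chr13:24817948-24831540.

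Acot1 and Acot2 are near copies, and their values have to be read with that in mind. Over 1236 aligned coding bases they were 95.3% identical, whereas each other pair of type I genes was between 75.3% and 85.8% identical. The longest run of bases that the coding sequences of Acot1 and Acot2 have in common was 273 bases long and lay in the third of 3 coding exons, at chr12:84017006-84017278 for Acot1 and at chr12:83992728-83993000 for Acot2. It is shown because a pair of reads that falls wholly inside it cannot be given to either gene by its sequence. Capitals mark the shared run and the 12 lower-case bases at each end are flanking coding sequence (GENCODE M21, GRCm38).
Acot1: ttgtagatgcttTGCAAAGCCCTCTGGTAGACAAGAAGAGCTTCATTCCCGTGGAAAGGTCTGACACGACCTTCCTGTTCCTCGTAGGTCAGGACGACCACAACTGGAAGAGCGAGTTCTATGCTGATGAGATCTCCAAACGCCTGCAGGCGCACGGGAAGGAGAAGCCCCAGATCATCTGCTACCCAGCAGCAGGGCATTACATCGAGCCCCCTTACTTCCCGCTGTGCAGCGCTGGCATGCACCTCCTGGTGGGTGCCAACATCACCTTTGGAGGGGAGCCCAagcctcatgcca
Acot2: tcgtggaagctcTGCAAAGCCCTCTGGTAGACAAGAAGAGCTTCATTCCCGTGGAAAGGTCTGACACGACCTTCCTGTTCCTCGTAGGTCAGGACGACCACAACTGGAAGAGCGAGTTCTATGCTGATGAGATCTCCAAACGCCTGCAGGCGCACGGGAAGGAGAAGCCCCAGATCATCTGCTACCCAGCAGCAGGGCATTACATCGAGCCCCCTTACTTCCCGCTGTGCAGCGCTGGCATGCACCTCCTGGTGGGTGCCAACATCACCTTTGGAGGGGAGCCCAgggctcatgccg
The capitals were the same in both genes and the flanks were not.

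Of all stretches of 31 bases in the Acot1 transcript, 39.2% were also found in another gene, and 29.2% in Acot2. For Acot2 the share was 37.3%, for Acot3 23.4% and for Acot4 8.86%. At 100 bases, the length of 1 read, the shares were 21.9% for Acot1, 17.1% for Acot2, 14.3% for Acot3 and 0.36% for Acot4. Acot9 had 36.9% of its stretches of 31 bases in common with Acot10, a retrogene copy of it, but only 0.968% of those of 100 bases. Acot7, Acot12 and Acot13 had no stretch of either length in common with another gene. The split of reads among Acot1 to Acot6 therefore rests on the authors' estimate and is uncertain. By these shares it is less so for Acot4 than for Acot1, Acot2 and Acot3. For Acot3, 11.7% of the stretches of 31 bases and 9.9% of those of 100 bases were found in Gm49366. That gene was not a row of the table. The largest share of Acot3 with another type I gene was 8.76% at 31 bases and 3.12% at 100 bases. Acot9 shared little at the length of a read, and Acot7, Acot12 and Acot13 shared nothing.

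The region before the start site is shown for Acot1, Acot2 and Acot4, the members with an unadjusted p under 0.05 in the interaction described below, and for Acot12. PPARa with its partner RXR is known to bind a direct repeat of the hexamer AGGTCA with 1 base between the copies, AGGTCANAGGTCA. Each line gives the 250 bases before the RefSeq start site, 5′ to 3′, in GRCm38.p6, and capitals mark letters that a search for the repeat, allowing at most 2 mismatches on either strand, picked out.
Acot1, chr12:84009252-84009501: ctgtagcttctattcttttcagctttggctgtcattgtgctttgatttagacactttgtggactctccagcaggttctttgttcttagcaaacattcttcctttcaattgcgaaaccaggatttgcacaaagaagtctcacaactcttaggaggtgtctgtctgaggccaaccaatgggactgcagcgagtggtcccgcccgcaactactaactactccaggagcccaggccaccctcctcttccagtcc
Acot2, chr12:83987611-83987860: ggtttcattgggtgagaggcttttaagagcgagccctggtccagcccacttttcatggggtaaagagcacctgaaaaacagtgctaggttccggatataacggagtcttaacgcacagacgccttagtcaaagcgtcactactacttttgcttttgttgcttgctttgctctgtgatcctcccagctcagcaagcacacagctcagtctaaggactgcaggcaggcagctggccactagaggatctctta
Acot4, chr12:84038129-84038378: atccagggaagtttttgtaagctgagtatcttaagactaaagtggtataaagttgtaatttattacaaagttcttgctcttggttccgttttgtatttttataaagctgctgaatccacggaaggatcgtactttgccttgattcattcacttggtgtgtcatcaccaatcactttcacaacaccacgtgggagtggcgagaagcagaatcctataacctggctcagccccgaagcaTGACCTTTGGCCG
Acot12, chr13:91741271-91741520: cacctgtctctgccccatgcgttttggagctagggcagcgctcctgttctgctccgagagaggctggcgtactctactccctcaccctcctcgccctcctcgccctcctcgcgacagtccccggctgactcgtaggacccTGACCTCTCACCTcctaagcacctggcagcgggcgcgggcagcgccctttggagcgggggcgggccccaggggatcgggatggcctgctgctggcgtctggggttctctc
Neither the full repeat nor the hexamer (AGGTCA, or TGACCT on the other strand) was found in these windows of Acot1 and Acot2, nor in those of Acot3, Acot7 and Acot9. Acot4 had a match with 2 mismatches that began 13 bases before the start site and Acot12 a match with 1 mismatch that began 110 bases before it, both on the minus strand. Of 32851 promoter windows of the same length, 14.0% held the hexamer, 0.0335% the full repeat and 3.24% the repeat with up to 2 mismatches. The Acot7 window, chr4:152185358-152185607, lies inside the gene span given above, so the region before the start of that span was not searched. A match is a likeness of letters, and a missing match says only that these letters are not in this window.

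The libraries held 39709785 to 54540864 estimated counts each, of which the 50 most abundant genes took 33.7% to 36.0%. The labels name the cell type as hepatocytes while the tissue is liver, and markers of other liver cells were present. The 8 hepatocyte markers summed to 98304 to 116006 CPM (counts scaled to a common library size) in WT and 95845 to 137345 CPM in S155A livers. S155A replicate 3 stood apart: Ighm, an immunoglobulin gene of B and plasma cells, was at 1164 CPM there and at 6.00 to 18.1 CPM in the other 7 livers. The 11 lymphocyte markers summed to 20.3 to 48.7 CPM in WT and 29.0 to 2068 CPM in S155A livers. Genes of adipocytes summed to 24.4 to 31.2 CPM and genes of muscle and heart to at most 0.189 CPM. The labels number the animals, with numbers from 89 to 123 for replicates 1 and 4 of both genotypes, called the low series here, and from 830 to 869 for replicates 2 and 3, the high series. What the numbers stand for is not stated. Plin5 mRNA, whose counts do not show the edited codon, was at 254, 194, 183 and 194 CPM in WT replicates 1 to 4 and at 457, 276, 192 and 386 CPM in S155A replicates 1 to 4 (log2 fold change 0.67 ± 0.24, SE, edgeR adjusted p = 0.993).

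Together, the 8 members made up 0.0594% to 0.130% of all counts in a liver. Their summed level was 962 ± 264 CPM in WT and 961 ± 326 CPM in S155A livers (SD, n = 4 each). The type I members took 60.6% to 81.1% of that sum. Their sum was 735 ± 267 CPM in WT and 743 ± 299 CPM in S155A livers, and that of the type II members was 227 ± 9.69 CPM and 217 ± 26.6 CPM. The spread of the family between livers was therefore mostly that of the type I genes.

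Levels of different genes can be compared only per length, here as CPM per kb of the gene's merged exons. Acot1 was highest with a mean over the 8 livers of 104 CPM per kb (SD 50.5). Acot13 followed with 60.1 (SD 8.92), Acot3 with 55.5 (SD 16.7), Acot12 with 46.0 (SD 6.61) and Acot2 with 28.3 (SD 12.0) on the same scale. Acot4 was at 11.9 (SD 2.42), Acot7 at 10.7 (SD 1.62) and Acot9 lowest at 1.45 CPM per kb (SD 0.200). The ranges over livers of neighbours in this order overlapped in each case but the last, in which the highest Acot9 value, 1.70 CPM per kb, lay below the lowest Acot7 value, 8.40. With the longest transcript as the length, Acot7 (15.1 CPM per kb) moved above Acot4 (12.8), Acot1 was at 156 and Acot9 at 1.89.

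**Figure D1:**
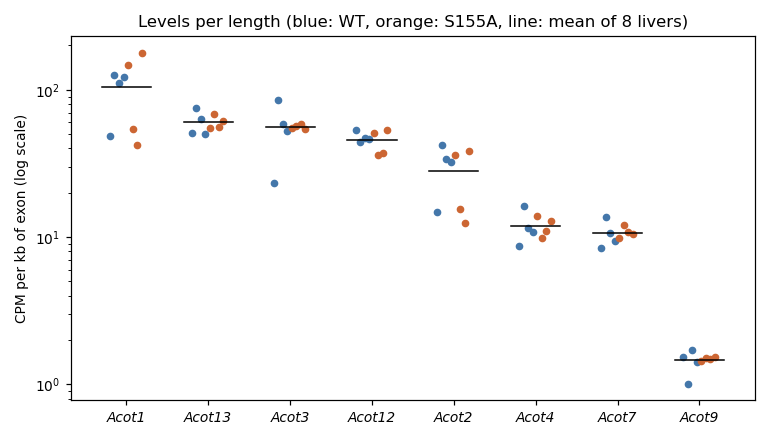
Level of each member in each of the 8 livers in CPM per kb of merged exon on a log axis, ordered by the mean (line), with WT livers in blue and S155A livers in orange. Acot1 has the highest mean, 104 CPM per kb, and the widest scatter, and Acot9 is apart from the rest at 1.45 CPM per kb.

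The comparison of S155A with WT asks whether loss of this phosphorylation site goes with other transcript levels in the fasted liver. None of the 8 members passed the test. The edgeR quasi-likelihood test with Benjamini-Hochberg adjustment over all genes gave them adjusted p values of 0.993 to 0.9998, and called 0% of the 14629 genes tested (smallest adjusted p = 0.758). An unadjusted p under 0.05 was reached by 497 genes (3.40%), 0 of them members, and DESeq2 called 6 genes, 0 of them members. The groups of 4 livers did not overlap for 337 genes (2.30%) and overlapped for all 8 members. The members' log2 fold changes ran from -0.26 to 0.08 with a median of 0.02, beside a median of -0.01 over all genes tested, and 5 of 8 were above 0. In bulk tissue, fewer cells of a type and less RNA per cell cannot be told apart.

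Acot1, the cytosolic type I enzyme, had the highest level and the widest spread of the family. It was at 189, 496, 433 and 480 CPM in WT replicates 1 to 4 and at 579, 211, 165 and 701 CPM in S155A replicates 1 to 4. The S155A livers lay on both sides of the WT livers: replicates 1 and 4 were above every WT liver, replicate 3 was below every WT liver and replicate 2 was above WT replicate 1 only. The means were 399 ± 143 CPM in WT and 414 ± 266 CPM in S155A livers (SD, n = 4 each). The log2 fold change was 0.05 ± 0.46 (SE), with a 95% interval from -0.98 to 1.08, that is, from 0.508-fold to 2.12-fold. The adjusted p of edgeR was 0.999, and a two-sided exact permutation test over the livers gave p = 0.971, where the smallest p that 4 against 4 allows is 0.0286.

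Acot2, the mitochondrial near copy, followed Acot1 liver by liver. Its level was 32.4, 92.7, 74.8 and 71.2 CPM in WT replicates 1 to 4 and 79.7, 34.3, 27.6 and 84.1 CPM in S155A replicates 1 to 4. As for Acot1, WT replicate 1 and S155A replicates 2 and 3 were the 3 low livers. The log2 fold change was -0.26 ± 0.40 (SE, 95% interval -1.16 to 0.63; edgeR adjusted p = 0.993). The ratio of Acot1 to Acot2 counts ran from 5.35 to 6.73 in WT and from 6.00 to 8.34 in S155A livers, a spread far below the 4.24-fold range of Acot1 itself. With the counts of both genes summed, which removes the uncertain split between them, the level was 467 ± 167 CPM in WT and 471 ± 296 CPM in S155A livers (SD, n = 4 each) and the log2 fold change was 0.01.

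**Figure D2:**
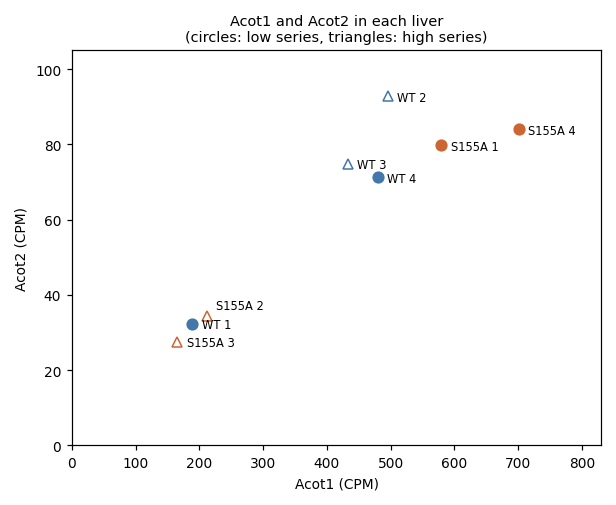
Acot2 against Acot1 in CPM, 1 point a liver, WT in blue and S155A in orange, with filled circles for the low and open triangles for the high animal number series. The 3 livers at the lower left (WT 1, S155A 2 and S155A 3) hold at most 211 CPM of Acot1 and 34.3 CPM of Acot2, and the other 5 at least 433 and 71.2 CPM.

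The peroxisomal members differed from that pair in where the spread lay. Acot3 was at 79.8, 293, 201 and 179 CPM in WT replicates 1 to 4 and at 188, 196, 203 and 186 CPM in S155A replicates 1 to 4. The S155A livers lay close together, while the WT livers spread over a 3.67-fold range that enclosed them. The difference in spread was not tested. Acot4, which is known to act on succinyl-CoA, was at 58.4, 109, 77.5 and 72.4 CPM in WT and at 92.6, 65.4, 73.0 and 86.2 CPM in S155A replicates 1 to 4. The log2 fold change of Acot3 was 0.04 ± 0.30 and that of Acot4 was -0.00019 ± 0.19 (SE, edgeR adjusted p = 0.999 and 0.9998). The interval of Acot4, from -0.42 to 0.42, was narrower than that of Acot1.

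The type II members varied less. Acot12, the cytosolic acetyl-CoA hydrolase of liver, was at 175, 145, 154.7 and 152 CPM in WT replicates 1 to 4 and at 167, 118, 123 and 175 CPM in S155A replicates 1 to 4. S155A replicates 2 and 3 were the lowest livers for this gene, and the log2 fold change was -0.11 ± 0.15 (SE, 95% interval -0.43 to 0.22; edgeR adjusted p = 0.993). It was -0.010 without S155A replicate 2. Acot13 was at 37.6, 56.4, 47.3 and 37.4 CPM in WT and at 40.8, 50.9, 41.7 and 45.8 CPM in S155A replicates 1 to 4, with a log2 fold change of 0.0041 ± 0.15 (SE, edgeR adjusted p = 0.9998). Pctp, which encodes its binding partner, was at 262 ± 11.9 CPM in WT and 269 ± 21.4 CPM in S155A livers (SD, n = 4 each).

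Acot7 was at 17.8, 29.0, 22.6 and 20.1 CPM in WT and at 21.1, 25.8, 23.1 and 22.4 CPM in S155A replicates 1 to 4. Acot9, the least abundant member, rested on 115 to 186 counts a liver and was at 3.47, 2.29, 3.87 and 3.24 CPM in WT and at 3.26, 3.41, 3.41 and 3.50 CPM in S155A replicates 1 to 4. For both genes all 4 S155A livers lay inside the WT range. The log2 fold changes were 0.05 ± 0.15 for Acot7 and 0.08 ± 0.20 for Acot9 (SE, edgeR adjusted p = 0.996 for both). The 95% intervals of the 4 type II members lay between -0.43 and 0.52, a narrower range than the interval of Acot1.

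**Figure D3:**
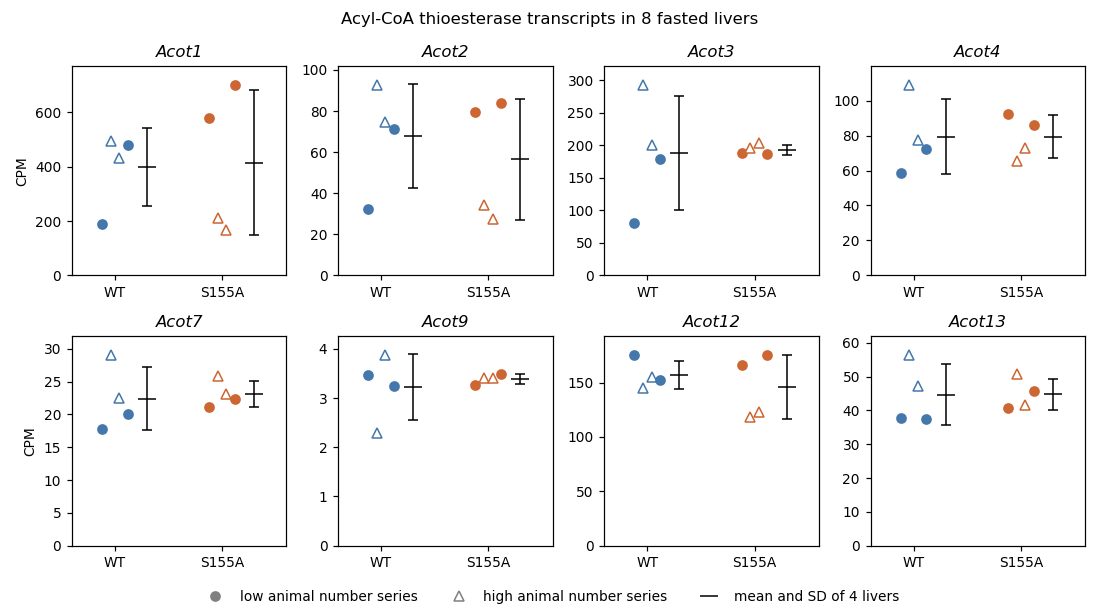
CPM of each member in the 4 WT (blue) and 4 S155A (orange) livers, with filled circles for the low and open triangles for the high animal number series and the mean ± SD of 4 livers in black; each panel starts at 0. The genotypes overlap for all 8 genes, and for Acot1 and Acot2 the filled and open S155A points are far apart.

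**Figure D4:**
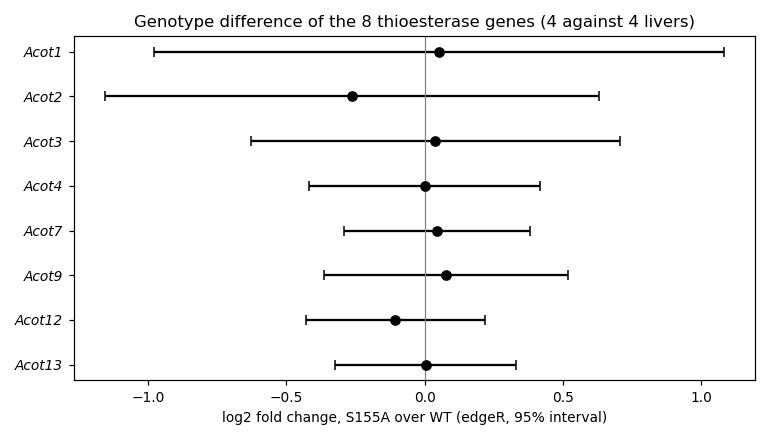
Log2 fold change of S155A over WT for each member with its 95% interval from edgeR, 4 against 4 livers. The points lie between -0.26 and 0.08 and each interval crosses 0, the widest being that of Acot1 (-0.98 to 1.08).

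Set apart by animal number series, Acot1, Acot2 and Acot4 were higher in S155A livers in the low and lower in the high series, a turn that did not pass the adjusted test given below. Each series holds 2 WT and 2 S155A livers, so a within-series difference carries no test of its own. In the low series Acot1 was at 189 and 480 CPM in the WT livers and at 579 and 701 CPM in the S155A livers. In the high series it was at 496 and 433 CPM in the WT livers and at 211 and 165 CPM in the S155A livers. S155A was thus above WT in the first series and below WT in the second with no overlap in either.

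As a difference in mean log2 CPM, S155A minus WT, Acot1 was at 1.08 in the low and -1.31 in the high series, Acot2 at 0.77 and -1.44, and Acot4 at 0.46 and -0.41. For these 3 members, the livers of the genotypes did not overlap in either series. Such a turn, S155A above in the low and below in the high series, was found for 691 of all genes tested (4.72%) and for 3 of the 8 members. Of these 3, Acot1 and Acot2 are near copies and do not count as independent. Acot3 went the same way, at 0.65 and -0.28, with overlap in the high series. The type II members were at 0.20 and -0.07 (Acot7), 0.01 and 0.19 (Acot9), 0.06 and -0.31 (Acot12) and 0.20 and -0.16 (Acot13). Over all genes tested, the median difference was -0.0041 in the low and -0.0092 in the high series.

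**Figure D5:**
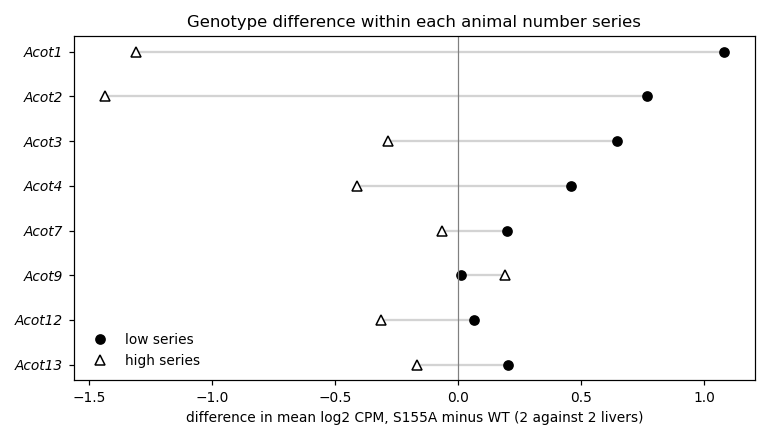
Difference in mean log2 CPM between S155A and WT in the low (filled circles) and high (open triangles) animal number series, 2 against 2 livers each. The 4 type I genes lie to the right of 0 in the low and to the left of 0 in the high series, from 1.08 to -1.31 for Acot1.

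The difference between the series was tested in edgeR as an interaction, the genotype difference in the high series minus that in the low series. No member passed at an adjusted p under 0.05, and 0% of all genes did (smallest adjusted p = 0.0851). The estimate was -2.24 ± 0.51 for Acot1, -2.10 ± 0.44 for Acot2 and -0.88 ± 0.26 for Acot4 on the log2 scale (SE). The unadjusted p values of edgeR were 0.00204, 0.00127 and 0.00839, and the adjusted ones 0.257, 0.247 and 0.302. At an unadjusted p under 0.05, 3 of 8 members were lower in the high series in this sense, beside 741 of all genes (5.07%). Acot1 and Acot2 among them are near copies whose estimates are not independent of each other. The other 5 members had estimates from -0.84 (Acot3) to 0.13 (Acot9) with unadjusted p of at least 0.0607. Leaving out WT replicate 1 brought the estimate of Acot3 to -0.36, and leaving out WT replicate 4 brought it to -1.54. Each of these values rests on 1 WT liver in the low series.

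Whether Acot1 and Acot2 were called depended on the tool, and the size of their estimates depended on single livers. DESeq2 called both (adjusted p = 0.000295 and 0.000290) among 285 genes. Without WT replicate 4, the edgeR estimates were -3.06 for Acot1 and -2.77 for Acot2. They then rest on WT replicate 1 as the 1 WT liver in the low series. Without WT replicate 1, which leaves WT replicate 4 there, they were -1.71 and -1.63. Over all alternatives, the adjusted p ran from 0.000295 to 0.608 for Acot1 and from 0.000290 to 0.605 for Acot2. Without S155A replicate 3, the liver with the immunoglobulin transcripts, the estimates were -2.07 for Acot1, -1.95 for Acot2 and -0.96 for Acot4. These estimates rest on 1 S155A liver in the high series, and the part of the left-out library in the interaction was not tested.

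Markers of several cell types also differed along this split. In log2 of the summed CPM, the hepatocyte list differed by -0.17 in the low and by 0.38 in the high series (S155A minus WT), the macrophage list (8 genes, 211 to 439 CPM in WT and 232 to 452 CPM in S155A livers) by -0.37 and 0.81, and the lymphocyte list by -0.0071 and 3.62. The lymphocyte list was thus at nearly the same level in both genotypes in the low series, and S155A replicate 3 held the highest sum in the high series. The hepatocyte and macrophage lists went opposite to Acot1, Acot2 and Acot4 in both series. At an unadjusted p under 0.05 and higher in the high series in the interaction were 3 of 8 hepatocyte, 7 of 8 macrophage and 4 of 11 lymphocyte markers, beside 881 of all genes (6.02%). In the high series the stellate list differed by -0.64, the cholangiocyte list by -0.59 and the red blood cell list by -0.42, as Acot1 did in direction. In the low series these 3 lists were at -0.39, 0.0057 and -0.06. The endothelial list was at -0.14 in the low and -0.10 in the high series. The pancreatic acinar list was at -0.43 and -1.92. It summed to 0.042 to 30.2 CPM in WT and to 0.079 to 0.55 CPM in S155A livers. No marker of these lists was at 0 in all livers. Their part in the result was not tested.

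Between the animal number series themselves, with genotype in the fit, no member was called by edgeR, as for 0% of all genes (smallest adjusted p = 0.0618). At an unadjusted p under 0.05 stood 3 of 8 members, beside 1877 of all genes (12.8%). High minus low, the log2 difference was -0.31 ± 0.11 for Acot12, 0.31 ± 0.12 for Acot7 and 0.28 ± 0.12 for Acot13 (SE, adjusted p = 0.282, 0.322 and 0.366). For Acot1 it was -0.64 ± 0.47 (SE), and ran from -0.28 without S155A replicate 3 to -1.14 without WT replicate 1.

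Members also differed in which other genes they resembled across the 8 livers. Likeness was measured as Pearson's r of log2 CPM, and is given as a description without a test, since all points share the same libraries and the Acot1 values fall into a low range of 3 livers and a high range of 5. Acot1 and Acot2 had r = 0.97, and Acot7 and Acot13 had r = 0.93. Acot1 with Acot4 was at 0.73 and Acot1 with Acot3 at 0.42, while Acot3 was closer to Acot7 (0.85). Acot3 and Acot4 were at 0.76, and Acot1 with Acot12 at 0.57.

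Among the 7437 other genes with a mean of at least 10 CPM, those most like Acot1 were Spsb2 (0.97), Acot2 (0.97), Maf1 (0.97), Mogs (0.96) and Nmt2 (0.95). Of all 14628 other genes tested, 69 reached an r of 0.9 with Acot1. For the other members this count ran from 13 for Acot9 to 121 for Acot12. The nearest to Acot2 were Wdr91 and Spsb2 (0.97 each), to Acot3 Drap1 (0.98) and Hdgf (0.96), and to Acot4 Ccm2 and Fam104a (0.96 each). The nearest to Acot7 were C8g and Fkbp8 (0.98 each), to Acot12 Supt16 and Usp7 (0.98 each), and to Acot13 Psenen (0.98) and Mob2 (0.97). Acot9 had its nearest at Yipf6 and Mrpl40 (0.92 each).

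Of 12 other thioesterase genes, 9 were tested and 0 were called between genotypes, 4 of them higher and 5 lower in S155A, with a median log2 fold change of -0.01. Baat, the enzyme that joins bile acids to amino acids, had the highest CPM of the list, 187 ± 41.5 CPM in WT and 187 ± 18.9 CPM in S155A livers. Acot8, a peroxisomal thioesterase, was at 41.0 ± 4.48 CPM and 43.6 ± 9.87 CPM (SD, n = 4 each). Acot8 differed by 0.44 in the low and -0.31 in the high series, with an interaction estimate of -0.74 (edgeR adjusted p = 0.303). It had no stretch of 31 bases in common with another gene. Acot6 and Acot5, the rest of the cluster, were at 2.46 ± 0.506 and 0.277 ± 0.152 CPM in WT and at 3.01 ± 0.844 and 0.300 ± 0.292 CPM in S155A livers. Acot5, on 2 to 39 counts a liver, differed by 1.14 in the low and -1.47 in the high series without overlap. Its interaction estimate was -3.03 (edgeR adjusted p = 0.402). Acot5 and Acot8 were the 2 of these 9 genes with an unadjusted p under 0.05 there, both lower in the high series, beside 741 of all genes (5.07%). The antisense gene 4732463B04Rik was at 0.310 ± 0.116 CPM in WT and 0.368 ± 0.0997 CPM in S155A livers.

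Acot11 (Them1), a thioesterase known from brown fat, had the log2 fold change farthest from 0 in this list, -0.57 ± 0.28 (SE, edgeR adjusted p = 0.993), with 4.68 to 11.5 CPM in WT and 3.50 to 6.28 CPM in S155A livers. Those groups overlapped. Ppt2 and Ppt1, which encode lysosomal thioesterases, were at 33.8 ± 2.20 and 17.8 ± 1.66 CPM in WT and at 35.0 ± 1.33 and 17.4 ± 1.93 CPM in S155A livers (SD, n = 4 each). Them4 had a log2 fold change of -0.12 and Them6 one of -0.18. Acot10, Them5 and Olah did not pass the filter on low counts, and Olah was at 0 counts in every liver.

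The genes that make acyl-CoA, the substrate of these enzymes, were likewise not called. Of 19 acyl-CoA synthetase genes, 16 were tested, with a median log2 fold change of 0.11, and 1 was higher and 1 lower at an unadjusted p under 0.05. These were Acsl4, at 16.3 ± 3.30 CPM in WT and 23.0 ± 5.09 CPM in S155A livers, and Acss3, at 21.7 ± 1.99 and 17.8 ± 2.21 CPM (SD, n = 4 each). The highest CPM, which are not set per length here or in the lists below, were those of Slc27a2, at 2219 ± 157 and 2128 ± 297 CPM, and Acsl1, the main long-chain synthetase, at 1116 ± 188 and 1035 ± 370 CPM. The adjusted p of all 4 in edgeR was between 0.993 and 0.996.

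Of 14 genes of coenzyme A synthesis and breakdown, all were tested and 0 called, with a median of -0.04. Enpp3 was lower at an unadjusted p under 0.05, at 22.2 ± 6.54 CPM in WT and 14.5 ± 3.25 CPM in S155A livers (SD, n = 4 each). Pank1, a pantothenate kinase that starts coenzyme A synthesis, was at 223 ± 19.1 and 207 ± 34.9 CPM, and Vnn1, a pantetheinase, at 246 ± 49.2 and 211 ± 48.7 CPM. Of 7 genes of acyl-CoA binding and thioesterase partners 0 were called (median -0.04). Acbd5, a peroxisomal acyl-CoA binding protein, was at 116 ± 17.7 and 93.4 ± 7.81 CPM (log2 fold change -0.31, edgeR adjusted p = 0.993). Fabp1, the liver fatty acid binding protein, was at 5260 ± 1652 and 4664 ± 1432 CPM, and Dbi, the acyl-CoA binding protein, at 525 ± 84.9 and 477 ± 88.7 CPM.

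Of 11 genes for PPARa and its regulators, 0 were called (median 0.04). Ncor1, a corepressor, was lower at an unadjusted p under 0.05, at 83.6 ± 9.71 CPM in WT and 69.5 ± 7.76 CPM in S155A livers (SD, n = 4 each). The highest CPM were those of Nr1i3 and Hnf4a, nuclear receptors with log2 fold changes of 0.04 and 0.18, and Hnf4a is also on the hepatocyte list. Ppara itself was at 96.3 ± 13.2 and 93.3 ± 5.48 CPM, and its r with Acot1 across livers was -0.52.

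Of 28 PPARa target genes that are not members, 0 were called and 15 were higher and 13 lower in S155A, with a median log2 fold change of 0.01. Plin5 was the gene at an unadjusted p under 0.05. Cyp4a14, at the highest CPM, had a log2 fold change of -0.09. In the low series 22 of the 28 were higher in S155A, with a median difference of 0.17, and in the high series 6 of 28, with a median of -0.22. In the interaction 10 of 28 were lower in the high series at an unadjusted p under 0.05, beside the 5.07% of all genes given above. An r above 0 with Acot1 was found for 23 of the 28, with a median r of 0.60, beside 51.0% of all genes tested and a median of 0.02. The median r of the same 28 genes was 0.57 with Acot2, 0.65 with Acot12, 0.20 with Acot4 and -0.16 with Acot3. With Acot7 it was -0.22, with Acot13 -0.06 and with Acot9 -0.02. The peroxisomal gene Acot3 thus stood apart from Acot1 and Acot2 in this measure, as did these 3 type II members. This is a description over 8 livers. Over the same livers, the summed hepatocyte markers had r = -0.90 with Acot1, and the other marker lists had r from -0.52 to 0.49. Between the animal number series, 8 of the 28 targets were at an unadjusted p under 0.05 in edgeR, beside 12.8% of all genes. The part of these differences in the likeness was not tested.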

How the data were processed

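Liver RNA of 4 WT and 4 S155A mice was sequenced as stranded poly-A libraries of 100 bp paired-end reads. The authors deposited salmon gene-level estimated counts, scaled by transcript length, for 45706 genes. Per the labels, GRCm38, bcl2fastq, STAR, SAMtools, MultiQC and DESeq2 were used, and salmon's version, annotation and strand setting are not given in the sources used here. Counts were rounded to whole numbers, low genes removed with filterByExpr, and genotype, series and interaction tested over all 14629 genes with TMM and quasi-likelihood fits in edgeR 4.0.16 (R 4.3.3), adjusted by Benjamini-Hochberg at 0.05. Standard errors and 95% intervals were derived from its F statistic. Log2 CPM used a prior count of 2. Alternatives used DESeq2 1.42.0 and limma 3.58.1, and the scripts were tested on simulated data. Likeness was measured in Python 3.11.15 and sequences compared with Biopython 1.88. RefSeq promoters matched 7 of the 8 members.

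The members and gene lists were chosen with earlier results of these data known, and the genes named are all 8 members, all other thioesterases and the annotated genes of their cluster, and, of the other lists, those at an unadjusted p under 0.05 and the 2 with the highest CPM, with the 5 genes most like Acot1 and 2 for each other member. Ighm, Ppara and Pctp were named besides, and 1 gene that this rule names is not reported here. Replicates are separate mice per the labels' biological replicate numbers.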

Additional observations from a re-analysis of the deposited data

Results flagged for a closer look

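For 3 members, both S155A livers lay above both WT livers in the low animal number series and below both in the high series. The interaction estimate in edgeR, high minus low series on the log2 scale, was -2.24 for Acot1, -2.10 for Acot2 and -0.88 for Acot4, and none passed the adjusted threshold (adjusted p = 0.257, 0.247 and 0.302). Acot1 and Acot2 have long stretches of sequence in common, so their estimates are not independent of each other. In the 16 groups of 4 livers formed by 8 members and 2 genotypes, 0 livers stood apart from the other 3 by Dixon's criterion at 95%.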

How the results depend on the processing

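No alternative called a member between genotypes. DESeq2 called 6 genes there, and each fit that left out 1 liver called 0. Fold changes near 0 changed sign. For Acot1, limma-voom gave -0.12, the replicate block -0.13 and the animal number series as a block -0.18. For Acot4, whose main value is -0.00019, DESeq2 gave 0.0038, limma-voom 0.023, DESeq2 size factors in edgeR 0.0038, scaling without the 50 most abundant genes 0.0051, a filter of 1 CPM in 4 livers 0.0045, the replicate block 0.025 and the series block 0.011. With library size alone, Acot3 was at -0.0016 and Acot13 at -0.035. Acot1 to Acot6 summed gave 0.018, and Acot1 and Acot2 summed 0.011. Left out in turn, the livers gave -0.32 to 0.32 for Acot1, -0.52 to -0.032 for Acot2, -0.21 to 0.33 for Acot3, -0.12 to 0.19 for Acot4, -0.043 to 0.20 for Acot7, -0.054 to 0.18 for Acot9, -0.21 to -0.010 for Acot12 and -0.072 to 0.14 for Acot13. The cause was not tested.

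The replicate numbers were not taken as pairs in the main fit. The correlations of same-numbered livers' deviations were 0.0565, 0.166, -0.111 and 0.129, and 5 of 8 livers correlated best with their own number. These values cannot decide whether livers were paired, since the numbers also follow the animal number series. The replicate block changed no call.

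In the interaction, DESeq2 called 285 genes and 2 members, and leaving out 1 liver gave 0 to 40 genes and 0 to 2 members, the highest of both without WT replicate 4. Without WT replicate 3 there was 1 gene and without S155A replicate 2 there were 5. The estimate ran from -3.06 to -1.71 for Acot1 and from -2.77 to -1.63 for Acot2 with 1 liver left out, for Acot3 from -1.54 to -0.36, and for Acot9 from -0.20 to 0.56, with -0.029 for library size alone. Between series, DESeq2 called 408 genes, a fit with no genotype term 12, and fits without 1 liver 0 to 111, the highest without WT replicate 3, with 0 members in each. Those fits gave -1.14 to -0.28 for Acot1, -0.80 to -0.019 for Acot2, -0.12 to 0.20 for Acot4 and -0.21 to 0.092 for Acot9. With the longest transcript as length, 6 of 8 members had the same place in the order of levels. At 4 livers a group, the 95% interval of the Acot1 fold change ran from 0.508 to 2.12, so differences of that size remain compatible with these data. The interval is not a limit of detection, since calls were made after adjustment over all genes tested.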
